A study of Homo sapiens with 7 samples.

Results

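The SLC1 genes encode membrane carriers for glutamate and for small neutral amino acids, and 3 of the 5 members considered here (SLC1A1, SLC1A4 and SLC1A5) had a row in the deposited expression table of 13142 genes. The members were chosen by family name together with measured values, since the choice rested on SLC1A1 being higher in every ASH1L knockout clone than in wild-type cells. SLC1A2 and SLC1A3 had no row in the table used and were not analysed here. Of the 7 genes of the family, SLC1A7 was the only further one with a row and is described beside the members, which gives 4 carriers in all. The cells were BHT-101, a line from a human anaplastic thyroid carcinoma, a dedifferentiated tumour of thyroid origin. The knockout group (KO) was 4 clones with premature stop codons in ASH1L, each a single library. By the labels, KO1 is truncated after residue 413, KO2 after residue 610 and KO3 after residue 2129, with the same stop on either allele, while the alleles of KO4 stop after residues 2169 and 2174. The wild-type group (WT) was 3 libraries of the parental line, labelled as biological replicates. All cells were grown in DMEM with fetal bovine serum, pyruvate and antibiotics, and no agent separated the groups. ASH1L is a histone methyltransferase of the Trithorax group that marks lysine 36 of histone H3. Each knockout library stands for 1 clone, so a difference of a clone from WT cannot be told apart from what that clone carried by descent.

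SLC1 carriers work as trimers in the plasma membrane. SLC1A1 (EAAT3) moves glutamate, aspartate and cysteine into cells together with sodium and protons against an outward flow of potassium, and is known from neurons and from epithelia such as kidney tubule and intestine. SLC1A2 (EAAT2) and SLC1A3 (EAAT1) are the main glutamate carriers of astrocytes, and SLC1A7 (EAAT5) is known from the retina, where it also passes chloride. SLC1A4 (ASCT1) and SLC1A5 (ASCT2) do not accumulate glutamate but exchange neutral amino acids such as alanine, serine and cysteine, and ASCT2 also carries glutamine, a main nitrogen source of many tumour cells. The genes of both exchangers are known targets of ATF4, the transcription factor of the amino acid response.

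The promoter windows of the 3 members show where in the genome they start and which short motifs their start regions hold. RefSeq (GRCh38.p14) gave 1 window each for SLC1A1 and SLC1A7, 2 for SLC1A4 and 3 for SLC1A5, from 250 bases before to 50 bases after an annotated start. The 4 windows below are those of SLC1A1, of the SLC1A4 start that holds a C/EBP-ATF response element, of the outermost SLC1A5 start and of an inner SLC1A5 start that holds the same element. Capitals mark this element, and all are written 5′ to 3′ on the strand of the gene.
SLC1A1, chr9:4490218-4490517, plus strand: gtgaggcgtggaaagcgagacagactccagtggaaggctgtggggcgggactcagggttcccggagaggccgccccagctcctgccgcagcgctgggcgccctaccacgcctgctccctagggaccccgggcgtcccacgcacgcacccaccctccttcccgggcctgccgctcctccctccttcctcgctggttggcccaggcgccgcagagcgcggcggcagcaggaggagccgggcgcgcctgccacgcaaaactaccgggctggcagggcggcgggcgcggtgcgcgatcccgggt
SLC1A4, chr2:64989149-64989448, plus strand: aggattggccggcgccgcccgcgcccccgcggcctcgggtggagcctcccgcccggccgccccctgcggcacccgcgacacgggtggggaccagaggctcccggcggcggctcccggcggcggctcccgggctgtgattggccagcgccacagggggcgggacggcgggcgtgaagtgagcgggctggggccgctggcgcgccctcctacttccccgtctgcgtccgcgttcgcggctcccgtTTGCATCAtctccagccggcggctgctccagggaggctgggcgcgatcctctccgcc
SLC1A5, outermost start, chr19:46788545-46788844, minus strand: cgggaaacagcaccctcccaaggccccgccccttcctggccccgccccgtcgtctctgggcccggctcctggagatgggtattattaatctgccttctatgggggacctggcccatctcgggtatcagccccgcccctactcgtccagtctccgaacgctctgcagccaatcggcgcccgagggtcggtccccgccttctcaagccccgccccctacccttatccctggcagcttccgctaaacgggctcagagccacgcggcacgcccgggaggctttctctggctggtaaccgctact
SLC1A5, inner start, chr19:46784765-46785064, minus strand: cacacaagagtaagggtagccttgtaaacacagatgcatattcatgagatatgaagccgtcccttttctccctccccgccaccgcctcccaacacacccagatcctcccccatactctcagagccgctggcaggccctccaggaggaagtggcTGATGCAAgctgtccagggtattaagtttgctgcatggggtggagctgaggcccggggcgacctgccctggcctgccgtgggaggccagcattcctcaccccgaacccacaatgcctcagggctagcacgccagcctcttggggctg
The element was searched on both strands as TGATGNAA, which 3.62% of all 35116 RefSeq promoter windows of this length hold. In SLC1A4 it begins at position -7 on the opposite strand, and at the inner SLC1A5 start it begins at position -97 on the strand of the gene. The SLC1A1 window holds no match to it, none to the antioxidant response core TGACNNNGC (in 13.3% of all windows) and none to the E-box CACGTG (in 7.26%). It holds 3 GC boxes, GGGCGG, a motif found in 45.0% of all windows, and 74.7% of its bases are G or C. The SLC1A4 window shown and the outermost SLC1A5 window hold 4 GC boxes each, and the inner SLC1A5 window holds 0. Their bases are 78.7%, 66.7% and 60.7% G or C, in the same sequence. Of the windows not shown, the other SLC1A4 start holds 0 of these 4 motifs, the middle SLC1A5 start holds the antioxidant core at -111 and the E-box at -50, and the SLC1A7 window holds the E-box at -60. These are matches of letters in a window, not bound sites.

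Each of the 3 members was measured on at least 132 reads in every library. Whole reads could be recovered from the deposited log2 RPKM values (reads per kilobase of gene and per 1000000 reads) once GENCODE 29 exon lengths and a prior count of 0.25 reads were assumed, and between 94.1% and 94.3% of the low values in each library came out whole within 0.05 reads, where chance gives 10%. Effective library sizes then ran from 44.0 to 70.4 M reads. ASH1L itself was at 2.69, 2.54, 2.42 and 3.74 log2 RPKM in KO1, KO2, KO3 and KO4, against 3.34, 3.30 and 3.22 in WT1, WT2 and WT3. A transcript with a premature stop codon can still be counted, so this level does not check the genotype. KO1, KO2 and KO3 lay below every WT library and KO4 lay above every one. Of 9 thyroid differentiation markers 1 had a row, PAX8, at a summed 0.0309 to 0.437 RPKM in the clones and 0.128 to 0.213 RPKM in WT, whereas 7 of 9 epithelial markers had rows, at a summed 313 to 703 RPKM in the clones and 597 to 717 RPKM in WT. Of 10 glial and neuronal markers, MBP and SYT1 had rows (9.53 to 16.6 RPKM in the clones and 16.3 to 20.6 RPKM in WT). Of 10 fibroblast and endothelial markers 4 had rows (20.4 to 70.2 RPKM in the clones and 51.4 to 55.4 RPKM in WT). Of 10 leukocyte markers 2 had rows, CD3D and CD14 (0.479 to 2.99 RPKM in the clones and 9.09 to 11.9 RPKM in WT), and PTPRC, which defines leukocytes, had none. Of the 13 tested markers, limma called 0 in the comparison of the groups, voom (limma on recovered reads) called 0, and 4 had an unadjusted p under 0.05 with voom, as did 16.3% of all genes tested with voom. The part of these markers in the carriers' levels was not tested, and in bulk RNA fewer cells of a type and less RNA per cell cannot be told apart.

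SLC1A1 (ENSG00000106688, chr9:4490444-4587469, plus strand) was higher in each of the 4 clones than in any WT library. It was at 3.43, 6.24, 5.68 and 4.996 RPKM in KO1, KO2, KO3 and KO4, against 0.631, 0.572 and 0.554 RPKM in WT1, WT2 and WT3. All clones were therefore high, all WT libraries were low, and KO1 was the lowest of the clones. The nearest pair, KO1 and WT1, lay 5.43-fold apart. These values stand for 671, 1576, 999 and 1406 reads in the clones, with a counting error of at most 3.86%, against 142, 144 and 132 reads in WT, with a counting error of at most 8.70%. The mean was 2.31 ± 0.38 log2 RPKM in the clones (SD, n = 4) and -0.77 ± 0.10 log2 RPKM in WT (SD, n = 3). The difference was 3.08 ± 0.23 on the log2 scale (SE), or 8.48-fold. This contrast chose SLC1A1, so its size is a description and no test is given. Clone by clone, its RPKM was 5.86, 10.7, 9.70 and 8.54 times the WT mean in KO1, KO2, KO3 and KO4. It passed the low value filter only through the clones. Within the libraries it stood above 40.02%, 52.4%, 51.4% and 48.3% of the genes in KO1, KO2, KO3 and KO4, against 11.7%, 10.9% and 9.97% in WT1, WT2 and WT3. The carrier thus stood near the middle of the table in 3 clones and near its lower end in WT. Its WT SD was larger than that of 47.6% of tested genes.

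**Figure D1:**
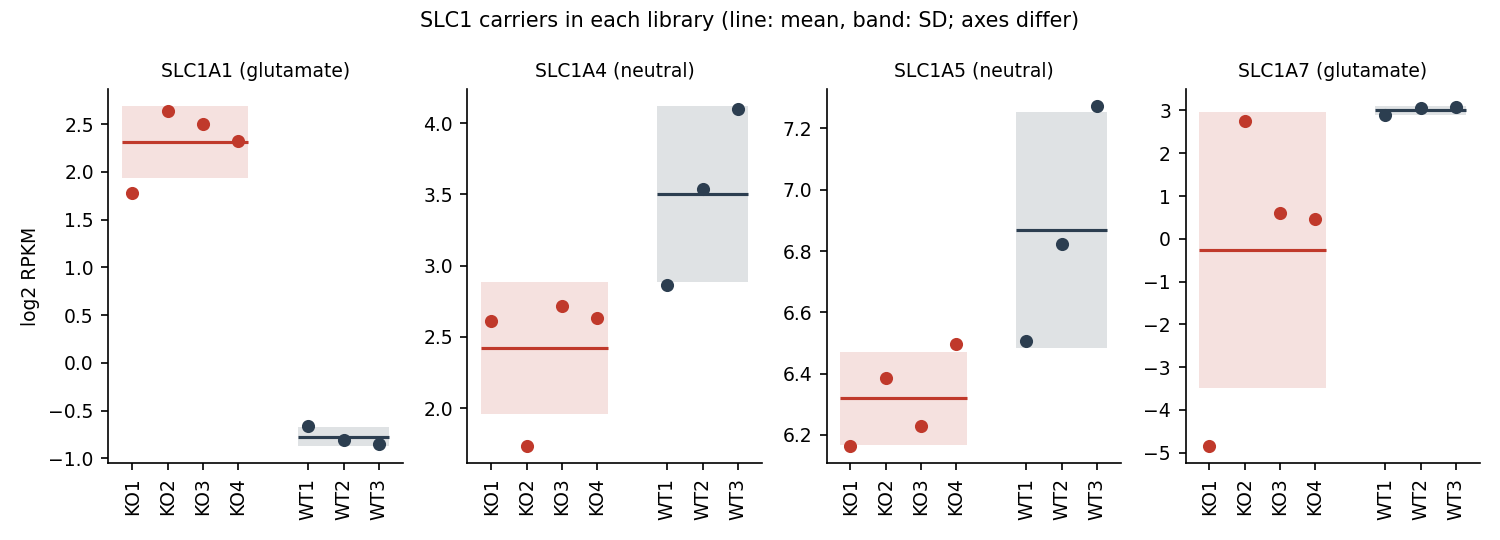
Level of each SLC1 carrier in log2 RPKM (y axes differ) in the 4 ASH1L KO clones (red) and the 3 WT libraries (dark), with 1 point per library, a line at the group mean and a band of 1 SD. SLC1A1 lies between 1.78 and 2.64 in the clones and between -0.85 and -0.66 in WT, and the WT points of SLC1A4 and SLC1A5 spread widely.

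The genes around SLC1A1 on chromosome 9 did not share a change of this size. The 17 other tested genes within 5 Mb had median log2 differences from the WT mean of 0.71, 0.40, -0.02 and 0.44 in KO1, KO2, KO3 and KO4, against -0.06, 0.02 and -0.03 in WT1, WT2 and WT3. In KO1 all 17 lay above the WT mean, in KO2 16, in KO4 15 and in KO3 7. On the log2 scale SLC1A1 exceeded these medians by 1.84, 3.02, 3.29 and 2.66. With the regional median subtracted from every gene, its difference between the groups was 2.68. The highest neighbour reached 1.53, 1.06, 0.41 and 0.77 in KO1, KO2, KO3 and KO4. In KO3 the median of the neighbours was -0.02 and SLC1A1 was 9.70 times the WT mean. Whether the region or the gene has other copy numbers in any of the clones was not tested.

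On the side of lower coordinates the nearest genes of the table were GLIS3, a transcription factor of thyroid and pancreas, RFX3, a regulator of cilia genes, and PUM3, an RNA-binding protein. GLIS3 was at 1.03, 0.54, 0.36 and 0.07 log2 RPKM in KO1, KO2, KO3 and KO4, against 0.24, 0.10 and 0.10 in WT1, WT2 and WT3 (difference 0.35 ± 0.27, SE; limma adjusted p = 0.554). PUM3 differed by 0.19 ± 0.14 (limma adjusted p = 0.519), and RFX3 did not pass the filter, at -0.94 to 0.02 in the clones and -0.61 to -0.54 in WT. On the other side lay SPATA6L, PLPP6, a phosphatase of isoprenoid phosphates, and CDC37L1, a co-chaperone of HSP90. PLPP6 was higher in all clones, at 2.01, 2.68, 1.78 and 2.30 log2 RPKM against 1.52, 1.72 and 1.61 in WT1, WT2 and WT3, and did not pass the test (0.58 ± 0.22; limma adjusted p = 0.272). CDC37L1 differed by 0.54 ± 0.23 with overlapping groups (limma adjusted p = 0.310). SPATA6L lies on the opposite strand, overlaps the end of SLC1A1 and shares 0 exon bases with it. It had 108, 105, 42 and 50 reads in KO1, KO2, KO3 and KO4, against 51, 79 and 81 in WT1, WT2 and WT3, so the groups overlapped. No source used here states the strand setting of the counting.

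**Figure D2:**
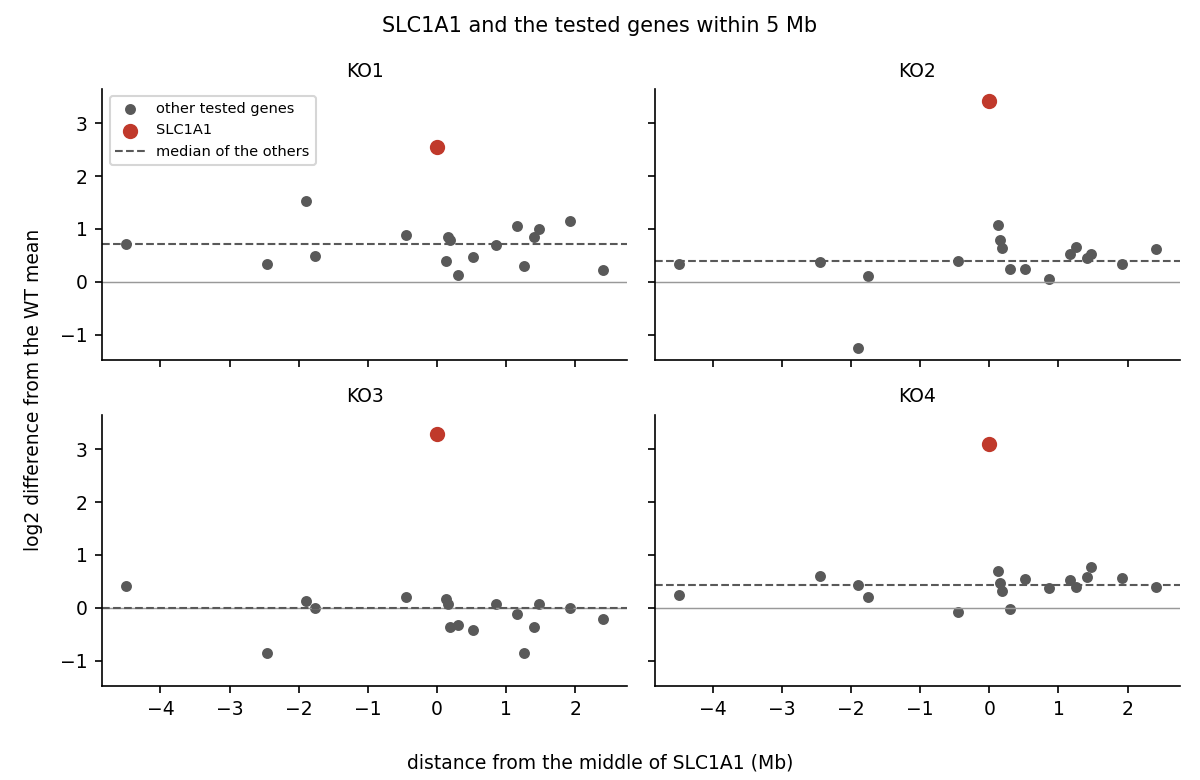
Log2 difference from the WT mean of SLC1A1 (red) and of the 17 other tested genes within 5 Mb (grey) against distance from the middle of SLC1A1 in Mb, with 1 panel per KO clone and a dashed line at the median of the grey points. SLC1A1 stands 1.84 to 3.29 above the dashed line in every clone, and the line itself lies at -0.02 in KO3 and at 0.71 in KO1.

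The neutral amino acid exchanger SLC1A4 (ENSG00000115902, chr2:64988477-65023865, plus strand) was lower in the clones, most of all in KO2, with a wide spread among WT libraries. It was at 6.11, 3.33, 6.57 and 6.19 RPKM in KO1, KO2, KO3 and KO4, against 7.29, 11.6 and 17.2 RPKM in WT1, WT2 and WT3. Every clone lay below every WT library, and KO3 was 9.86% below WT1, with counting errors of 2.23% in KO3 and 1.87% in WT1. Across the tested genes, all clones lay below all WT libraries in 10.1%, and the groups did not overlap in 19%, so this separation was common. The mean was 2.42 ± 0.46 log2 RPKM in the clones (SD, n = 4) and 3.502 ± 0.62 log2 RPKM in WT (SD, n = 3). The difference of -1.08 ± 0.34 (SE) did not pass the test across all genes (limma adjusted p = 0.205). An exact two-sided permutation test gave p = 0.0571, and a design of 4 against 3 libraries allows no p below 0.0286. SLC1A4 varied more among the WT libraries than 99.4% of tested genes did, 2.36-fold between its highest and lowest value.

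With the clones taken singly, SLC1A4 fell in KO2. There it lay 1.77 log2 units below the WT mean (estimate -1.77 ± 0.41, SE; limma adjusted p = 0.0202, with the spread of the WT libraries). The call was lost without WT2 (adjusted p = 0.0578). In KO1, KO3 and KO4 its differences were -0.89, -0.79 and -0.87 with limma adjusted p of 0.124, 0.181 and 0.166. Without WT1, the WT library nearest to the clones, the differences of these clones were -1.21, -1.10 and -1.19. Whether they were called thus changed with the WT library left out. Such single-clone calls assume that a clone varies like the WT libraries. The median SD over the tested genes was 0.30 among the clones and 0.10 among the WT libraries. The p-values of single clones, here and for the other carriers, therefore leave out the spread between clones. Calls were frequent, with 44.1%, 33.5%, 34.1% and 24.8% of tested genes called in KO1, KO2, KO3 and KO4. Genes called higher made up 19.2%, 15.5%, 14.2% and 10.4% and genes called lower 24.9%, 18%, 19.9% and 14.4% of tested genes in these clones. The 34 other tested genes within 5 Mb had medians of -0.30, -0.18, 0.09 and -0.18 in KO1, KO2, KO3 and KO4. The nearest tested genes were SERTAD2 (-0.23 ± 0.25; limma adjusted p = 0.676), a transcription co-regulator, and CEP68 (0.00467 ± 0.16; limma adjusted p = 0.991), a centrosome linker protein, and both had overlapping groups.

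SLC1A5 (ENSG00000105281, chr19:46774883-46788594, minus strand), the glutamine carrier, was the most abundant of the 4 in every library. It was at 71.7, 83.7, 75.0 and 90.3 RPKM in KO1, KO2, KO3 and KO4, against 90.9, 113 and 155 RPKM in WT1, WT2 and WT3. The clones were low and WT2 and WT3 were high, while WT1 and KO4 lay side by side. KO4 was 0.618% below WT1, which is less than the counting errors of 0.687% in KO4 and 0.765% in WT1, so the groups were not separated at this depth. The mean was 6.32 ± 0.15 log2 RPKM in the clones (SD, n = 4) and 6.87 ± 0.39 log2 RPKM in WT (SD, n = 3). The difference of -0.55 ± 0.19 (SE) did not pass the test (limma adjusted p = 0.228; exact two-sided permutation p = 0.0571, the lowest possible), and without WT3 it was -0.35. Its WT spread exceeded that of 97.3% of tested genes, whereas its spread among the clones exceeded that of only 14.9%. Single-clone differences were -0.70, -0.48, -0.64 and -0.37 in KO1, KO2, KO3 and KO4, with limma adjusted p of 0.0703, 0.202, 0.106 and 0.337. Without WT1, the WT library nearest to the clones, they were -0.88, -0.66, -0.82 and -0.55 in KO1, KO2, KO3 and KO4. At the other end of the range over WT libraries left out they were -0.50, -0.28, -0.44 and -0.17. Whether a clone was called thus changed with the WT library left out. SLC1A5 shares 780 exon bases with an antisense gene that has no row, and without strand these reads cannot be told apart. AP2S1, a subunit of the clathrin adaptor and a near neighbour on the chromosome, was lower in all clones at -0.63 ± 0.14 and did not pass the test (limma adjusted p = 0.124). The 144 other tested genes within 5 Mb had medians of -0.10, -0.25, -0.11 and 0.07 in KO1, KO2, KO3 and KO4.

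SLC1A7 (ENSG00000162383, chr1:53087179-53142632, minus strand) differed more between clones than the members did. It was at 0.0348, 6.73, 1.51 and 1.38 RPKM in KO1, KO2, KO3 and KO4, against 7.39, 8.27 and 8.43 RPKM in WT1, WT2 and WT3. KO1 was nearly without reads (9), KO3 and KO4 were low (359 and 525 reads), and KO2 (2301 reads) was 8.90% below WT1, against 2253, 2818 and 2718 reads in WT1, WT2 and WT3. It fell in KO1 (-7.85), KO3 (-2.41) and KO4 (-2.54), with limma adjusted p of 4.58e-07, 0.000177 and 0.000148, and was not called in KO2 (-0.25; limma adjusted p = 0.235). Over the 4 clones together the mean difference of -3.26 ± 1.56 (SE) did not pass the test (limma adjusted p = 0.357; exact two-sided permutation p = 0.0571, the lowest possible). That mean leaned on KO1 and on values near 0, at -1.73 without KO1 and -1.78 on the log2(RPKM + 1) scale. On that scale the difference of KO1 alone was -3.12. Its spread among the clones exceeded that of 99.2% of tested genes. The 39 other tested genes within 5 Mb had medians of 0.09, 0.01, 0.16 and 0.06 in KO1, KO2, KO3 and KO4. Its nearest tested genes, SCP2 for sterol carrier protein and CPT2 of mitochondrial fatty acid import, differed by -0.43 ± 0.23 and 0.06 ± 0.23 (limma adjusted p = 0.402 and 0.928). Of its exon bases 216 are shared with an antisense gene without a row.

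Over all genes, 46 of the 11154 tested were called between the clones and WT (0.412%), 19 of them higher (0.17%) and 27 lower (0.242%). The count was 0 without any single WT library, 1 without KO4, 87 without KO3 and 236 without KO2. Of the 3 carriers tested in that comparison (SLC1A4, SLC1A5 and SLC1A7), 0 were called in either direction with limma, and 0 with voom on the recovered reads. With limma 2 (SLC1A4 and SLC1A5) had an unadjusted p under 0.05, as did 15.7% of all tested genes, and with voom all 3 did, as did 16.3% of all genes. The p-values measure the spread between these libraries, and the clones enter as replicates of the knockout. The order of the carriers differed between the groups. In KO1, KO3 and KO4 it was SLC1A5, SLC1A4, SLC1A1, SLC1A7, and in KO2 it was SLC1A5, SLC1A7, SLC1A1, SLC1A4. In WT1 the order was SLC1A5, SLC1A7, SLC1A4, SLC1A1, and in WT2 and WT3 SLC1A4 was above SLC1A7. SLC1A7 and SLC1A4 in WT1 lay at 7.39 and 7.29 RPKM, a gap smaller than their counting errors of 2.11% and 1.87%. Within a clone the order has no replicate check. SLC1A1 made up 4.21%, 6.24%, 6.40% and 4.86% of the summed RPKM of the 4 carriers in KO1, KO2, KO3 and KO4, against 0.594%, 0.428% and 0.307% in WT1, WT2 and WT3. SLC1A5 made up 83.7% to 88.2% of the sum in the clones and 84.7% to 85.6% in WT. The message of the glutamine carrier thus dominated among the 4 carriers with a row in both groups.

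**Figure D3:**
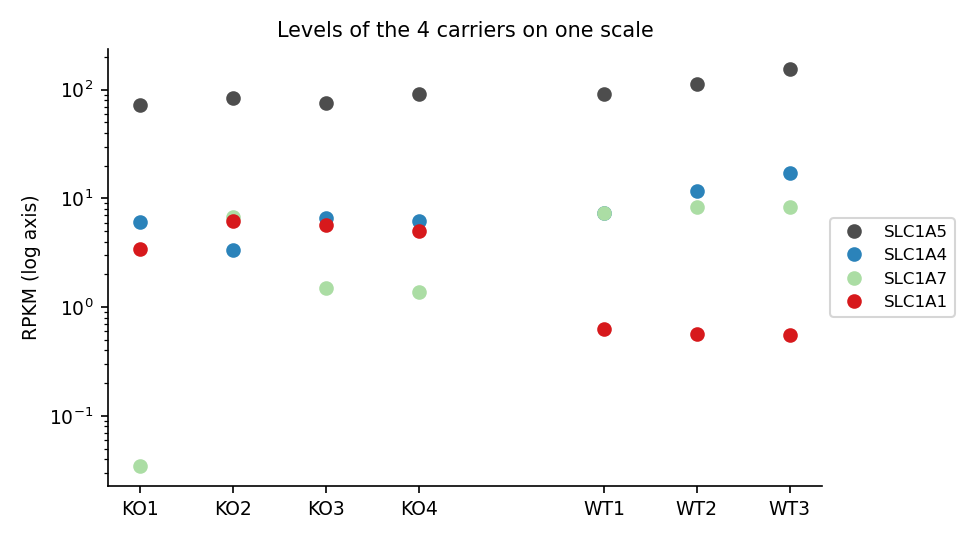
Level of the 4 carriers in RPKM on a log axis in the KO clones and the WT libraries, with 1 point per carrier and library. SLC1A5 lies at 71.7 to 155 RPKM throughout, SLC1A1 at 3.43 to 6.24 RPKM in the clones and 0.554 to 0.631 RPKM in WT, and SLC1A7 at 0.0348 RPKM in KO1.

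Whether the carriers depend on where ASH1L is truncated was examined by setting the late-stop clones (KO3 and KO4) against the early-stop clones (KO1 and KO2). Stops in KO3 and KO4 lie near the SET domain that carries the methyltransferase activity. Of SLC1A4, SLC1A5 and SLC1A7, 0 were called. SLC1A1 averaged 2.41 log2 RPKM in late-stop and 2.21 in early-stop clones, a difference of 0.20 ± 0.32 (SE), given with no test because the levels of these clones chose it. SLC1A4 averaged 2.67 in late-stop and 2.17 in early-stop clones (0.50 ± 0.44; limma adjusted p = 0.990), and SLC1A5 averaged 6.36 in late-stop and 6.28 in early-stop clones (0.09 ± 0.26; limma adjusted p = 0.993). SLC1A7 averaged 0.53 in late-stop and -1.05 in early-stop clones (1.58 ± 2.13; limma adjusted p = 0.990), a mean that hides the gap between KO1 and KO2. In this comparison 0 of 11154 genes were called with limma (0%) and 436 had an unadjusted p under 0.05 (3.91%). The voom fit on recovered reads also called 0. Without KO1, limma called 293 genes and SLC1A7 differed by -2.22 (limma adjusted p = 0.00895), whereas without KO2 it called 279 genes and SLC1A7 differed by 5.38 (limma adjusted p = 0.00131). Each of these fits leaves a lone early-stop clone, assumed to vary like the other groups. With 2 clones a class these errors leave room for differences of the size seen.

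ATF4 and genes of the pathway lists are set beside both exchangers here, as a description. ATF4 was at 7.21, 7.23, 6.96 and 7.15 log2 RPKM in KO1, KO2, KO3 and KO4, against 7.36, 7.64 and 7.92 in WT1, WT2 and WT3. All clones lay below WT, and the difference of -0.51 ± 0.15 (SE) did not pass the test (limma adjusted p = 0.184). ASNS, the asparagine synthetase that ATF4 induces, was at 4.58, 4.31, 4.89 and 4.23 log2 RPKM in KO1, KO2, KO3 and KO4, against 4.50, 6.02 and 7.31 in WT1, WT2 and WT3. WT1 fell inside the range of the clones, and the difference of -1.44 ± 0.58 did not pass the test (limma adjusted p = 0.288). It was -0.76 without WT3 and -2.16 without WT1, so its size rested on single WT libraries. PSAT1 of serine synthesis was at 5.98, 5.41, 5.67 and 5.56 in KO1, KO2, KO3 and KO4, against 5.43, 6.46 and 7.34 in WT1, WT2 and WT3. CHAC1, which breaks down glutathione, was at 1.37, 1.42, 1.93 and 1.08 in KO1, KO2, KO3 and KO4, against 0.42, 3.09 and 4.12 in WT1, WT2 and WT3. ATF5, a factor related to ATF4, was at 3.01, 3.06, 3.96 and 3.10 in KO1, KO2, KO3 and KO4, against 3.57, 2.92 and 2.69 in WT1, WT2 and WT3, so its WT libraries lay the other way round and its groups overlapped. ASNS, PSAT1, CHAC1, ATF5 and SLC7A11 do not stand for their lists, and PSAT1, CHAC1, ATF5 and SLC7A11 were named after their values had been seen. Of all tested genes 23.3% were lowest in WT1 and highest in WT3, as SLC1A4 and SLC1A5 were, and 22.3% were highest in WT1 and lowest in WT3, as SLC1A1 was. In the list of transcription factors 8 of 17 tested genes were lowest in WT1 and highest in WT3. The counts were 6 of 11 for serine, glycine and asparagine supply and 11 of 20 for cystine uptake and glutathione synthesis. They were 9 of 19 for glutamate and glutamine enzymes and 14 of 26 for other amino acid carriers. For partners and trafficking they were 4 of 15, for the sodium pump 1 of 4 and for glutamate receptors and vesicular carriers 0 of 2. The reverse order held for 1, 0, 3, 1, 3, 5, 1 and 1 genes of these lists, in the same sequence. The part of ATF4 in the levels of SLC1A4 and SLC1A5 was not tested.

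**Figure D4:**
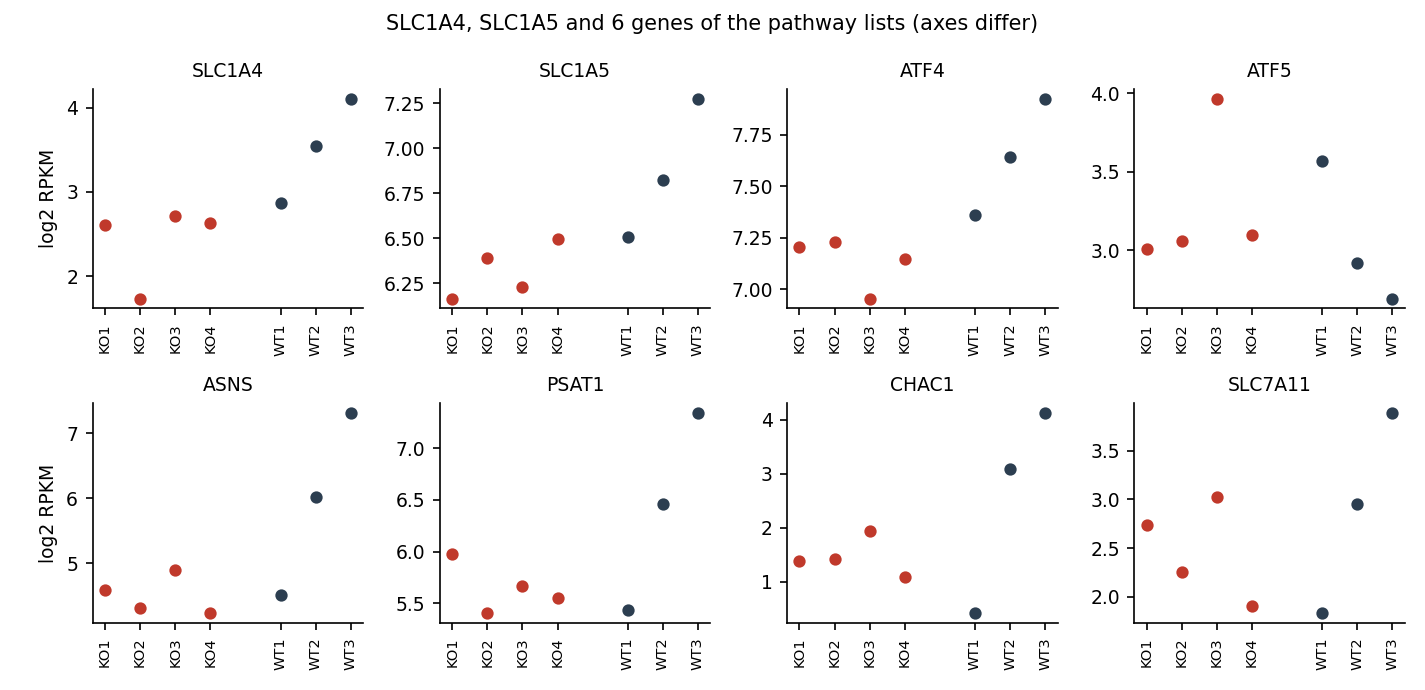
Log2 RPKM (y axes differ) of SLC1A4, SLC1A5 and 6 genes of the pathway lists in the KO clones (red) and the WT libraries (dark), with 1 point per library. WT1 is the lowest WT library and WT3 the highest in every panel but that of ATF5, where WT1 is at 3.57 and WT3 at 2.69, and for ASNS, at 4.50, WT1 lies within the range of the clones.

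The genes whose profile over the 7 libraries lay nearest to SLC1A1, by the root mean square (RMS) of the log2 differences from the WT mean, were RNF212 (RMS difference 0.37), LRRC6 (0.49), CSAG1 (0.50), ANXA10 (0.63) and PRKCZ (0.66). RNF212, a factor of meiotic crossing over, was at 1.56, 1.33, 1.29 and 1.57 log2 RPKM in KO1, KO2, KO3 and KO4, against -1.68, -1.90 and -2.05 in WT1, WT2 and WT3. LRRC6, needed to assemble the dynein arms of cilia, was at 1.08, 0.58, 0.82 and 0.20 in the clones and at -1.997, -1.95 and -2.50 in WT. CSAG1, a cancer-testis gene, was at 0.39, 2.22, 2.62 and 1.11 in the clones and at -0.98, -1.34 and -1.49 in WT. ANXA10, an annexin of gastric epithelium, and PRKCZ, an atypical protein kinase C of cell polarity, were at -0.74 to 1.95 and 0.08 to 1.42 in the clones and at -2.22 to -1.54 and -1.97 to -1.68 in WT. These genes were picked for the likeness, so their separation is a description.

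For SLC1A4 the nearest profiles were those of WDFY2, an endosomal protein (RMS difference 0.25), MTHFD2 of mitochondrial folate metabolism (0.27) and HMOX1, the stress-induced heme oxygenase (0.27). For SLC1A5 they were CEBPB, a bZIP transcription factor (0.12), GPD1L (0.12) and PYGB, the brain glycogen phosphorylase (0.13). For SLC1A7 they were ADGRF5, an adhesion receptor (0.49), TM4SF5 (0.54) and TFF1, a secreted mucosal peptide (0.62), with 2 unnamed transcripts nearer than TFF1. TFF1 was at -0.65, 4.999, 3.52 and 2.74 log2 RPKM in KO1, KO2, KO3 and KO4, against 6.10, 5.82 and 5.71 in WT1, WT2 and WT3. TFF1 was picked for this likeness, so its values are a description.

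Of 39 other amino acid carriers 27 had rows and 26 were tested. With limma 0 were called between the groups in either direction, and 7 had an unadjusted p under 0.05, beside 15.7% of all tested genes. Over all 8 pathway lists together, voom on the recovered reads called 1 of 108 tested genes, the carrier SLC6A15, and 22 had an unadjusted p under 0.05. SLC6A15 passed the low value filter only through the WT libraries, so its call is a description. Over all 10239 genes tested with voom it called 37 (0.361%), and 16.3% had an unadjusted p under 0.05. The median log2 difference was -0.32, beside -0.02 over all tested genes, with 7 carriers on the positive and 19 on the negative side. The clones lay all above WT for 2 of the 26 and all below WT for 8, beside 8.88% and 10.1% of all tested genes. SLC43A1, which carries large neutral amino acids, was at 2.26, 3.16, 2.69 and 2.19 log2 RPKM in KO1, KO2, KO3 and KO4, against 3.23, 3.49 and 4.08 in WT1, WT2 and WT3. The clones lay below WT, with a difference of -1.02 ± 0.29 (limma adjusted p = 0.170). The glutamine carriers of system A, SLC38A1 (-0.51 ± 0.15; limma adjusted p = 0.187) and SLC38A2 (-0.76 ± 0.23; limma adjusted p = 0.192), were also below WT in every clone. KO4 and WT1 lay close together, at 5.754 and 5.762 log2 RPKM for SLC38A1 and at 6.49 and 6.52 for SLC38A2. With the regional median subtracted SLC38A1 and SLC38A2 differed by -0.25 and -0.51. SLC7A11, the cystine carrier that exports glutamate, was at 2.73, 2.25, 3.02 and 1.91 in KO1, KO2, KO3 and KO4, against 1.83, 2.95 and 3.89 in WT1, WT2 and WT3, so its groups overlapped. In single clones 3, 5, 3 and 0 of the 26 were called higher and 11, 5, 5 and 7 lower in KO1, KO2, KO3 and KO4. Over all tested genes the shares were 19.2%, 15.5%, 14.2% and 10.4% higher and 24.9%, 18%, 19.9% and 14.4% lower in these clones.

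SLC6A15 came near to silence in every clone and SLC6A20 in KO3, and SLC7A7 was low in KO1. These carriers were named after their values had been seen. SLC6A15, a sodium-coupled carrier of branched-chain amino acids and proline, had 4, 2, 2 and 3 reads in KO1, KO2, KO3 and KO4, against 566, 831 and 983 reads in WT1, WT2 and WT3. It was nearly absent in all clones, the opposite side from SLC1A1. The adjusted p over the 4 clones was 0.335 from limma on log2 RPKM and 0.000262 from voom, so its call depended on the tool. SLC6A15 passed the low value filter only through the WT libraries, so these p-values are a description and no support. SLC6A20, a proline carrier, had 106, 1492, 0 and 331 reads in KO1, KO2, KO3 and KO4, against 523, 557 and 600 reads in WT1, WT2 and WT3. SLC7A7, the light chain of a cationic amino acid exporter, was at -1.90, 2.35, 0.91 and 1.27 log2 RPKM in KO1, KO2, KO3 and KO4, against 2.05, 2.21 and 2.40 in WT1, WT2 and WT3. Like SLC1A7, both were highest among the clones in KO2.

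**Figure D5:**
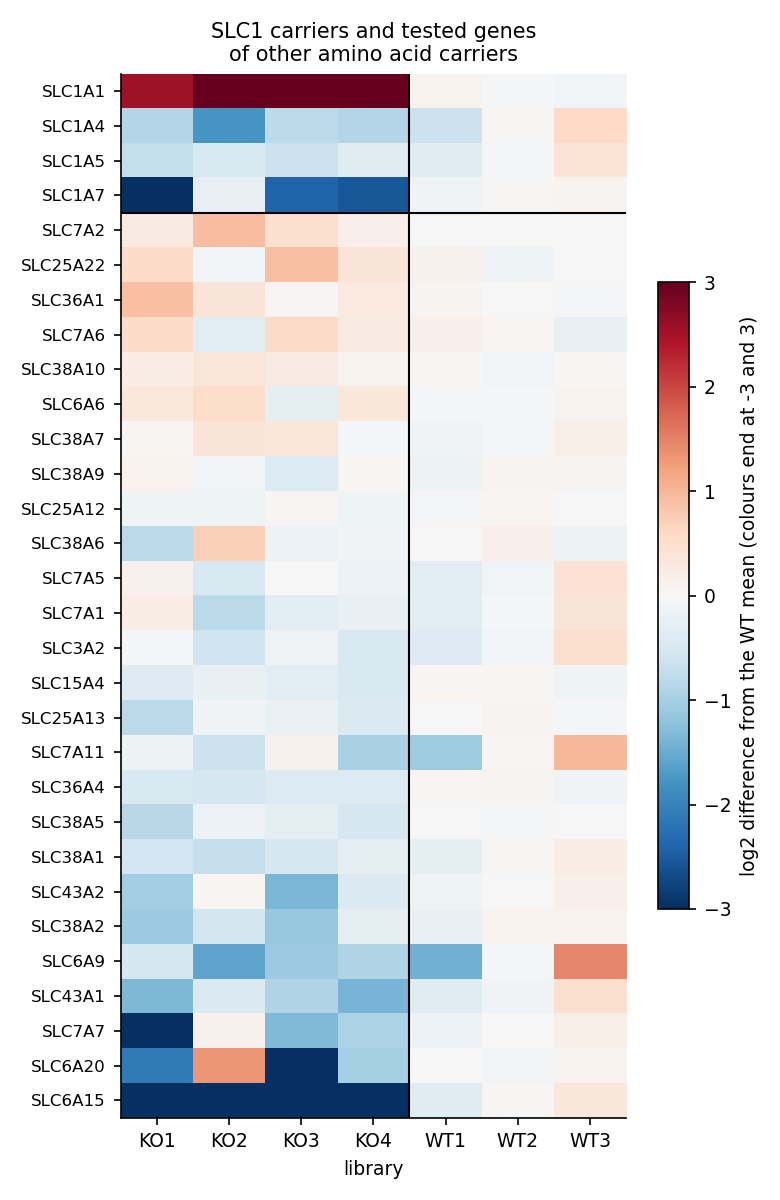
Heat map of the log2 difference from the WT mean for the 4 SLC1 carriers (above the line) and the 26 tested other amino acid carriers (below it, ordered by the difference between the groups), with KO clones left and WT libraries right of the vertical line; colours end at -3 and 3. SLC1A1 is high in all 4 clones, SLC6A15 is low in all 4, and SLC7A11, SLC6A9, SLC1A4 and SLC1A5 differ visibly among the WT libraries.

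Of 30 enzymes of glutamate and glutamine metabolism 22 had rows and 19 were tested, with 0 called in either direction by limma and 4 with an unadjusted p under 0.05. In this list and in those that follow, such counts stand beside 0.412% called and 15.7% with an unadjusted p under 0.05 among all tested genes. Their median log2 difference was -0.21, and 1 lay on the positive and 18 on the negative side, beside 5240 and 5914 of all tested genes. OAT, the ornithine aminotransferase that links ornithine to glutamate, was at 4.31, 3.62, 3.94 and 4.33 log2 RPKM in KO1, KO2, KO3 and KO4, against 4.65, 4.81 and 4.73 in WT1, WT2 and WT3. It lay lower in every clone (-0.68 ± 0.19; limma adjusted p = 0.162), as did ALDH18A1, which starts proline synthesis from glutamate (-0.31 ± 0.11; limma adjusted p = 0.231), and GLUD1, glutamate dehydrogenase (-0.38 ± 0.15; limma adjusted p = 0.279). With the regional median subtracted, ALDH18A1 differed by -0.11 and GLUD1 by -0.24.

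SLC1A1 also carries cysteine, which cells use for glutathione. Of 25 genes of cystine uptake and glutathione synthesis 23 had rows and 20 were tested, with 0 called by limma, 3 with an unadjusted p under 0.05, a median of -0.26, 3 positive and 17 negative. GCLM, the modifier subunit of the enzyme that starts glutathione synthesis, was at 4.07, 4.00, 4.00 and 4.61 log2 RPKM in KO1, KO2, KO3 and KO4, against 4.78, 4.93 and 4.80 in WT1, WT2 and WT3. All clones lay below WT, with KO4 nearest to it, and the difference of -0.67 ± 0.17 did not pass the test (limma adjusted p = 0.145). CNDP2, a dipeptidase, differed by -0.48 ± 0.13 (limma adjusted p = 0.166), or by -0.30 with the regional median subtracted, and TXNRD1, thioredoxin reductase, by -0.73 ± 0.31 with overlapping groups (limma adjusted p = 0.316). Of 18 genes supplying serine, glycine and asparagine, 12 had rows and 11 were tested, with 0 called by limma, 3 with an unadjusted p under 0.05, a median of 0.02, 6 positive and 5 negative. Beside ASNS, SHMT2 of mitochondrial one-carbon metabolism differed by -0.59 ± 0.22 (limma adjusted p = 0.272), and by -0.37 without WT3. SRR, serine racemase, was above WT in every clone by 0.52 ± 0.22 (limma adjusted p = 0.299), or by 0.33 on the log2(RPKM + 1) scale.

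Of 20 partners and trafficking factors of SLC1 carriers 18 had rows and 15 were tested, with 0 called by limma, 2 with an unadjusted p under 0.05, a median of 0.07, 8 positive and 7 negative. GOPC, a Golgi PDZ protein, and PRKCA, protein kinase C alpha, which is known to move EAAT3 to the cell surface, were above WT in every clone by 0.31 ± 0.11 and 0.26 ± 0.10 (limma adjusted p = 0.229 and 0.281). With the regional median subtracted GOPC differed by 0.14 and PRKCA by 0.11. SNX27, which returns membrane proteins from endosomes, differed by 0.28 ± 0.17 (limma adjusted p = 0.445). The sodium pump, which maintains the gradient that drives these carriers, was represented by 4 tested genes of 12, with 0 called by limma, 0 with an unadjusted p under 0.05 and a median of -0.02. ATP1B1, its beta subunit, differed by -0.21 ± 0.49 and FXYD5, a regulatory subunit, by 0.08 ± 0.23 (limma adjusted p = 0.866 and 0.892). The signs of both turned under other settings or without 1 clone. Of 29 glutamate receptors and vesicular carriers 6 had rows and 2 were tested, with 0 called by limma, 1 with an unadjusted p under 0.05 and a median of -1.94. GRIN2A, an NMDA receptor subunit, had 68, 313, 780 and 226 reads in KO1, KO2, KO3 and KO4, against 2018, 1786 and 1365 reads in WT1, WT2 and WT3. These reads come from libraries of unequal size. Its log2 differences from the WT mean were -4.36, -2.53, -0.69 and -3.15 in KO1, KO2, KO3 and KO4. All clones lay below WT (-2.68 ± 0.82, limma adjusted p = 0.192), with KO3 at 0.09 log2 RPKM near WT3 at 0.45. GRIN2D, another subunit, differed by -1.20 ± 0.75 with overlapping groups (limma adjusted p = 0.470). It was -0.45 without KO2 and -0.67 on the log2(RPKM + 1) scale, on which GRIN2A differed by -0.996.

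Of 19 transcription factors known to act on SLC1 genes 17 had rows and all 17 were tested, with 0 called by limma, 2 with an unadjusted p under 0.05, a median of -0.05, 8 positive and 9 negative. RARA, the retinoic acid receptor alpha, was at 2.69, 2.77, 2.56 and 2.52 log2 RPKM in KO1, KO2, KO3 and KO4, against 2.21, 2.06 and 2.32 in WT1, WT2 and WT3. All clones lay above WT (0.44 ± 0.12; limma adjusted p = 0.166), and with the regional median subtracted the difference was 0.0908 (limma adjusted p = 0.720). STAT3, a factor of cytokine signalling, was above WT in every clone, with KO1 at 3.73 log2 RPKM close to WT3 at 3.72. Its mean difference was 0.27 ± 0.12 (limma adjusted p = 0.339), with the sign turned after position centring (-0.0853).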

How the data were processed

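The labels name a column kit with DNase treatment for RNA isolation and an Illumina TruSeq kit for the libraries. The authors deposited log2 RPKM values as a single table. The submitters' processing notes name hg38, edgeR, HTSeq 0.11.2, STAR 2.5.3a and Trim Galore 0.4.1, without roles. The annotation, prior count, filter and strand setting were not given in the sources used here.

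Genes above a log2 RPKM of 0 in at least 3 of the 7 libraries were tested (11154 of 13142). The deposited log2 values were fitted with limma 3.58.1 in R 4.3.3 (variance trend, Benjamini-Hochberg adjustment over all tested genes, two-sided, adjusted p under 0.05), for the clones against WT, for each clone against WT with the WT spread, and for late-stop (stop after residue 1500) against early-stop clones. Single genes were also tested by exact two-sided permutation, which for 4 against 3 libraries can give no p below 0.0571. GENCODE 29 placed 12306 genes (93.6%), and the median difference of genes within 5 Mb served for position centring. Promoter windows came from RefSeq, GRCh38.p14. Reads were recovered by dividing out exon length, and voom on these reads, tried after seeing the data, was one alternative. The alternatives also covered the filter, pseudocounts of 0.1 and 1, quantile and median scaling, no variance trend, position centring, the replicate block and each library left out. The limma procedure was tested on simulated data.

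The members and gene lists were chosen with earlier results of these data known. Named were the members and SLC1A7, the genes called or the 3 smallest unadjusted p of each of 8 lists, the nearest genes on the chromosome and the nearest profiles; exceptions are marked, and a few genes that the rule names are not reported here. Counting errors cover counting only, whereas the ± values are SDs between libraries or SEs of the limma fits.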

Additional observations from a re-analysis of the deposited data

Results flagged for a closer look

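Among 53 genes examined, 1 clone stood apart from the other 3 for 3 genes, by a gap above Dixon's 95% critical value; chance marks about 1 group in 20. SLC1A4 was at 1.73 log2 RPKM in KO2, and at 2.61, 2.72 and 2.63 in KO1, KO3 and KO4. GCLM was at 4.61 in KO4, and at 4.07, 4.00 and 4.00 in KO1, KO2 and KO3. SRR was at 1.45 in KO2, and at 0.86, 0.84 and 0.91 in KO1, KO3 and KO4.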

How the results depend on the processing

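The difference of SLC1A1 between the clones and WT ran from 1.92 to 3.26 in the 16 alternatives that could be run. It was 1.92 under log2(RPKM + 1) and 2.68 after position centring, and a mean log2 RPKM above 1 left the gene out. SLC1A1 was chosen for being higher in every clone, so its sign in these fits is a description and no support. SLC1A4, SLC1A5 and SLC1A7 stayed negative and uncalled in all 17 (adjusted p 0.153 to 0.598, 0.168 to 0.605 and 0.137 to 0.703). The count of called genes, 46 (19 higher, 27 lower), moved to 29 with a mean log2 RPKM above 1, 75 under log2(RPKM + 1) (20 higher, 55 lower), 1 after position centring (higher) and 0 with the replicate block; voom gave 37 (11 higher, 26 lower). With 1 library left out it ran from 0 (without any of the WT libraries) to 236 (without KO2), with 1 without KO4 and 87 without KO3. Same-numbered clones and WT libraries had correlations of 0.06, 0.07 and -0.01 in their deviations, so the replicate block pairs nothing but numbers.

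Single-clone counts were 3270 in KO1 and 2525 in KO3 after position centring; with 1 WT library left out they ran from 3088 to 5833 in KO1, 1743 to 4867 in KO2, 1706 to 4906 in KO3 and 1153 to 3972 in KO4, each lowest without WT2. Late-stop against early-stop clones gave 0 to 293 genes, with 293 without KO1 and 279 without KO2. In that comparison SLC1A1 turned to -0.23 without KO1 (range over libraries left out to 0.64), SLC1A5 to -0.0685 after position centring and -0.0238 and -0.0466 without KO1 and KO4 (range to 0.22), and SLC1A7 to -0.21 under log2(RPKM + 1) and -2.22 without KO1 (adjusted p = 0.00895), against 5.38 without KO2 (adjusted p = 0.00131). Between the groups, ATP1B1 turned to 0.14 without KO1 (range -0.64 to 0.14), FXYD5 to -0.0283 after position centring and -0.13 with the block and without KO4 (range to 0.19), and STAT3 to -0.0853 after position centring. The cause was not tested. Depth limits SLC1A7 in KO1, with 9 reads and a counting error of 33.3%.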
